A study of Mus musculus with 80 samples.

Results

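The lipogenesis and triglyceride synthesis genes are 39 of the 32764 gene symbols in the count data. They were listed by name for fatty acid synthesis, desaturation, activation and triglyceride assembly, and all 39 were counted. In de novo lipogenesis, citrate leaves the mitochondrion and is cleaved to acetyl-CoA, which is carboxylated to malonyl-CoA and elongated to palmitate with NADPH as the reductant. The fatty acid is then desaturated, activated to its CoA ester and esterified stepwise to glycerol-3-phosphate to give triglyceride. White adipose tissue stores this triglyceride, brown adipose tissue also burns it for heat, and SREBP1c and ChREBP are the best known transcription factors of the pathway.

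RNA was sequenced from inguinal white adipose tissue (iWAT), brown adipose tissue (BAT), liver and muscle of male mice on the C57BL/6J background. The 4 genotypes were WT, UCP1 KO, FGF21 KO and the double knockout of both genes (dKO), whose label is spelled with FGF12 in place of FGF21, with 5 libraries per genotype and tissue and 80 in all. UCP1 is the uncoupling protein of brown adipocytes and FGF21 is a secreted metabolic hormone, and no tissue restriction of either deletion is stated. All mice were raised at 30 °C, and at 10 to 12 weeks of age they were moved to room temperature and given high-fat diet for 3 weeks. All groups therefore share the diet and the cooler housing, and no chow-fed or thermoneutral group is included.

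The libraries held 28691377 to 50380696 counts on genes. Levels are given as CPM, which scales counts to library size with TMM factors, and as RPKM, which divides by exon length, where genes are compared with each other. RPKM was scaled once over all 80 libraries, and tissues are set side by side without a test. Differences are log2 fold changes ± SE from edgeR's quasi-likelihood test over the 20 libraries of a tissue, and a gene is called at a Benjamini-Hochberg adjusted p under 0.01 over all genes tested. All 39 members were tested in iWAT and in BAT, 37 in liver (not Scd3 and Scd4) and 37 in muscle (not Scd4 and Mogat2). Fgf21 had 0 to 3 counts in the FGF21 KO and dKO libraries of all tissues. Ucp1 was still counted in the BAT libraries labelled UCP1 KO, with 24291 to 60779 counts against 98548 to 216085 in WT. In iWAT the counts ran from 109 to 776 in WT but from 3942 to 20264 where the label is UCP1 KO, so that Ucp1 counts do not check the label there. The dKO libraries had 40641 to 90118 Ucp1 counts in BAT and 196 to 1189 in iWAT, where they overlap WT, so that the loss of UCP1 is not checked in dKO iWAT either. UCP1 KO and dKO stand below for the libraries so labelled. A lymph node marker score (the mean log2 CPM of 8 genes) divided the iWAT libraries, with 9 of 20 between 6.25 and 7.17 and the other 11 at or under 1.62. The 9 were 2 WT, 1 UCP1 KO, 2 dKO and 4 FGF21 KO libraries. A skeletal muscle score of 10 genes was 1.91 to 9.28 in the UCP1 KO and 2.38 to 8.39 in the dKO libraries of BAT, against 1.15 to 3.07 in WT. Hepatocyte markers in liver scored 11.74 to 12.37 and muscle markers in muscle 12.81 to 13.13. The muscle libraries also had adipocyte scores of 2.3 to 4.74.

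In WT mice, 14 members had a median above 100 RPKM in BAT, 10 in iWAT, 10 in liver and 2 in muscle. With the exon lengths used, Scd1, the stearoyl-CoA desaturase that makes oleate, led in every tissue, with a WT median of 14380 RPKM in BAT, 12250 in iWAT, 2287 in liver and 197 in muscle. The exon length used for Fabp4, 4489 bases, takes in its whole gene from 10204088 to 10208576. The RPKM of Fabp4 may thus be too low, and its rank beside Scd1 in fat and muscle is not settled here. Fasn, the synthase that builds palmitate, had 2031 RPKM in BAT (range 1250 to 2256) and 294.6 in iWAT (190.6 to 441), and these ranges did not overlap. The WT ranges of Acly, which cleaves citrate to acetyl-CoA, were likewise apart, at 359 to 942 RPKM in BAT and 46.4 to 119 in iWAT. Tkt, the transketolase of the pentose phosphate pathway, had 417 RPKM in BAT and 40.2 in iWAT, and Acacb, the acetyl-CoA carboxylase of the mitochondrial surface, had 245 and 28.4. Fabp4, the fatty acid carrier of adipocytes, was similar in both fats at 1563 and 1356 RPKM, and Srebf1, which encodes SREBP1c, at 48.2 and 45.8.

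Some members had other tissue patterns. The polyunsaturated fatty acid desaturases Fads1 and Fads2 had WT medians of 182 and 243 RPKM in liver and at most 16.4 and 3.91 in the other tissues. Their neighbour Fads3 was highest in iWAT, at 66.0 RPKM (26.6 to 72.5), against 6.62 in BAT and 0.805 in liver. Of the lipins, which dephosphorylate phosphatidate to diacylglycerol, Lpin1 had 69.0 RPKM in muscle and 56.4 in BAT, while Lpin2 had 38.3 in liver and 1.22 or less elsewhere. Acsl6, an acyl-CoA synthetase, had 2.49 RPKM in muscle and at most 0.0525 in the other tissues. Mogat1, a monoacylglycerol acyltransferase, had 11.6 RPKM in iWAT and 3.86 in BAT.

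**Figure D1:**
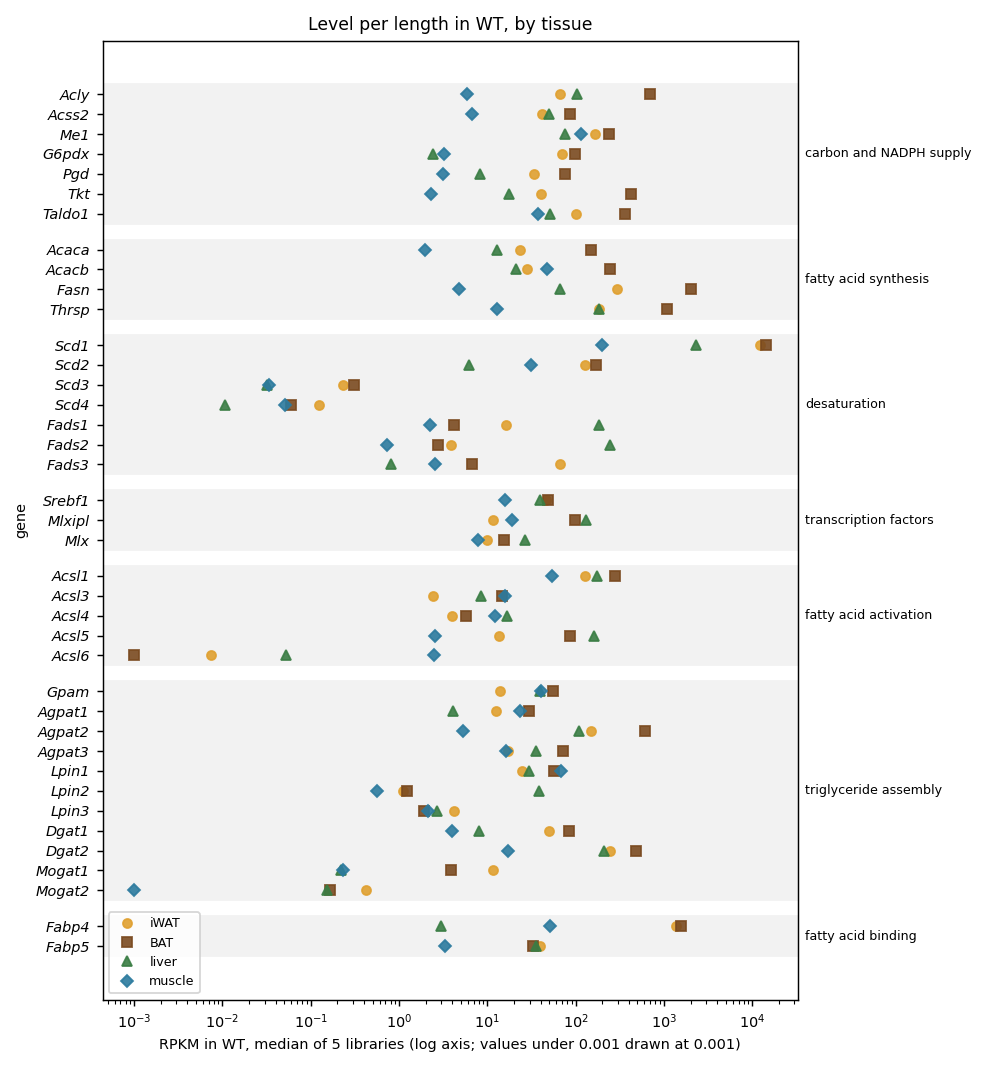
RPKM of the 39 members in WT (horizontal log axis, median of 5 libraries, values under 0.001 drawn at 0.001), with genes in rows by role and a colour and marker for each tissue. With the exon lengths used, which may understate Fabp4, Scd1 is the highest member in each of the 4 tissues, at 14380 RPKM in BAT. Fasn in BAT (2031) lies above iWAT (294.6), liver (66.2) and muscle (4.82).

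In iWAT, 33 of the 39 members had a positive log2 fold change in UCP1 KO and 6 a negative one, and 1 member passed the threshold. Between UCP1 KO and WT, Acsl5 was called (1 of 39), beside 0.61% of all 17380 genes tested (0.593% higher). The median log2 fold change of the members was 0.58, against -0.03 over all genes. At an unadjusted p under 0.05, 18 members were higher and 0 lower (14.7% of all genes pass in either direction and 10.2% are higher). By role, the median was highest for the 4 genes of fatty acid synthesis at 1.23, followed by 0.84 for the 7 genes of carbon and NADPH supply and 0.63 for the 5 acyl-CoA synthetases. It was 0.50 for the 11 genes of triglyceride assembly, 0.50 for the 2 binding proteins, 0.39 for the 3 transcription factors and 0.24 for the 7 desaturases. In these bulk samples, fewer cells of a type and less RNA per cell cannot be told apart.

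**Figure D2:**
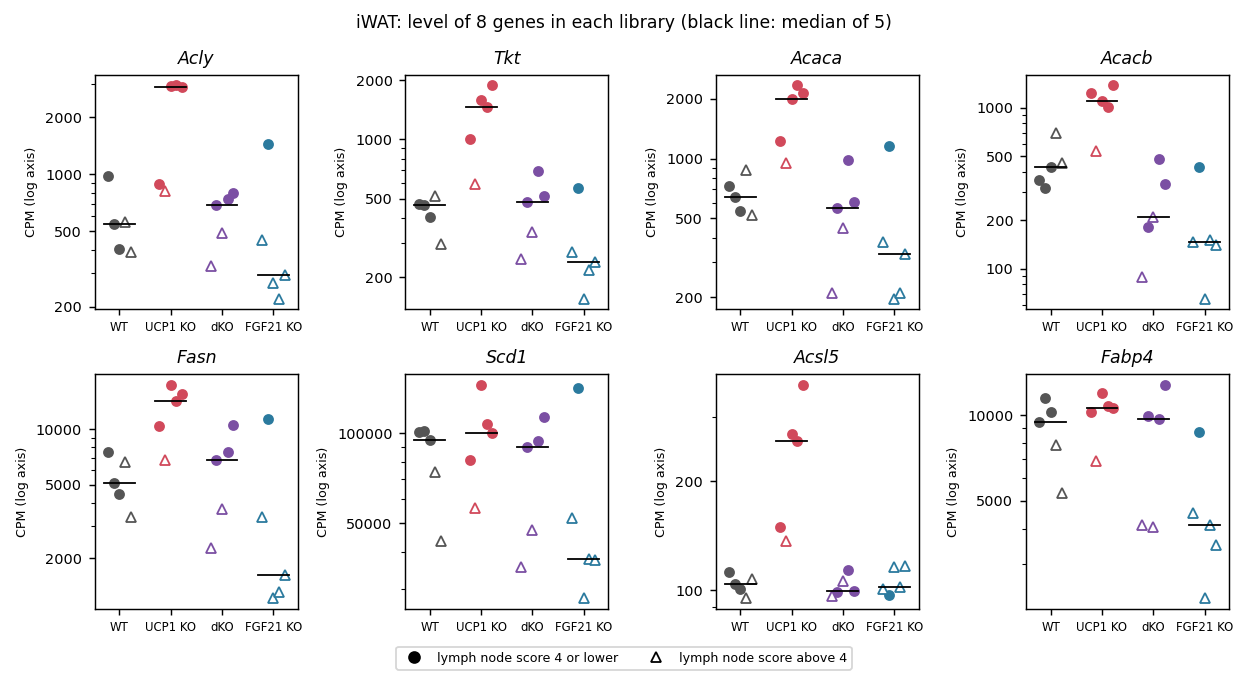
CPM (log axis) of 8 members in the 20 iWAT libraries by genotype, with 1 marker per library, a black line at the median of 5 and open triangles for libraries with a lymph node score above 4. For Acsl5 the 5 UCP1 KO libraries (136.6 to 368.8 CPM) lie above all libraries of the other genotypes, while for Scd1 and Fabp4 UCP1 KO and WT overlap.

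Acsl5 encodes an acyl-CoA synthetase that activates long-chain fatty acids. The gene lies on chromosome 19 of GRCm38 from 55251938 to 55297720 (GENCODE M21, plus strand). It had 149.5, 136.6, 269.7, 258.8 and 368.8 CPM in the 5 UCP1 KO libraries and 112.2, 104, 100.8, 95.07 and 107.3 in WT. All 5 UCP1 KO libraries lay above WT and above every dKO (96.59 to 113.7) and FGF21 KO library (96.91 to 116.4). Acsl5 rose 2.28-fold against WT (log2 fold change 1.19 ± 0.20, adjusted p = 0.0036). The call was lost when any 1 of the 5 WT libraries or 1 of 2 UCP1 KO libraries was left out (7 of 20 fits) and when only these 2 genotypes were fitted (adjusted p = 0.054). An exon of Acsl5 overlaps Zdhhc6 on the other strand, and the strand option of the counting was not stated.

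Tkt (chromosome 14, 30548359 to 30574720) had 1002, 593.6, 1587, 1463 and 1883 CPM in UCP1 KO and 472.1, 467.9, 403.4, 518.7 and 294.1 in WT. The groups did not overlap, but the UCP1 KO library with a high lymph node score was closest to WT, and Tkt missed the threshold with a log2 fold change of 1.60 ± 0.36 (adjusted p = 0.024). Acacb (chromosome 5, 114146535 to 114250761) had 1232, 537.4, 1102, 1007 and 1383 CPM in UCP1 KO and 358.5, 318.9, 431.8, 699.5 and 454.6 in WT. Only the lowest UCP1 KO library lay within the WT range, and the log2 fold change was 1.22 ± 0.46 (adjusted p = 0.19). Acaca, the cytosolic acetyl-CoA carboxylase, had 948.3 to 2344 CPM in UCP1 KO and 521.7 to 879.7 in WT, which did not overlap, with a log2 fold change of 1.39 ± 0.46 (adjusted p = 0.13). The groups of UCP1 KO and WT did not overlap for 4 members, Tkt, Acaca, Acsl5 and Fabp5, all higher in UCP1 KO, beside 2.92% of all genes.

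The promoters of Acsl5, Tkt and Acacb are shown because a result in iWAT turns on each of these members. They are the 250 bases before the RefSeq transcription start on GRCm38.p6, 5′ to 3′ on the strand of the gene, and capitals mark CCAAT boxes (CCAAT) and GC boxes (GGGCGG) found on either strand. The coordinates are chr19:55253119-55253368 on the plus strand for Acsl5, chr14:30548881-30549130 on the plus strand for Tkt and chr5:114165268-114165517 on the plus strand for Acacb.
Acsl5: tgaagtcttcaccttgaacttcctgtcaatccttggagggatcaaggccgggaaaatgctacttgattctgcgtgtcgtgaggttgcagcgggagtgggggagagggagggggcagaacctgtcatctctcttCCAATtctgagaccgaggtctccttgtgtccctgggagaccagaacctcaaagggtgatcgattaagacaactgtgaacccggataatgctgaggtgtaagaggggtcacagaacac
Tkt: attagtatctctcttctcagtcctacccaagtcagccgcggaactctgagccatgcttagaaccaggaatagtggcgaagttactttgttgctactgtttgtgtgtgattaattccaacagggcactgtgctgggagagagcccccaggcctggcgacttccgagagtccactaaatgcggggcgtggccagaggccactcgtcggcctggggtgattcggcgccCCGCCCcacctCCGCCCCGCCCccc
Acacb: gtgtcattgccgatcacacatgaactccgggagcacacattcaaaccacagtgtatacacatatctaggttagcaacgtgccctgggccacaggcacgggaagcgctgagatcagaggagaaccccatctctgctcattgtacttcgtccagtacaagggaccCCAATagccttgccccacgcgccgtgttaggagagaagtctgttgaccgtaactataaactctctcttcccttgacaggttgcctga
The GENCODE spans of these genes begin upstream of the RefSeq starts used, so the windows lie inside them, that of Acacb far inside. These promoters held 1, 3 and 1 motif matches in that order, and neither a sterol regulatory element nor an E-box was matched in them.

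The genes of acetyl-CoA supply and palmitate synthesis were uneven among the UCP1 KO libraries. Acly had 893.6, 818.7, 2940, 2958 and 2886 CPM in UCP1 KO and 977.5, 548.5, 400.9, 562.9 and 390.8 in WT. Of the UCP1 KO libraries, 3 were far above WT and the other 2 lay within its range, 1 of them with a high lymph node score and 1 with a skeletal muscle score of 9.81. Such scores were not limited to these libraries, since 2 WT libraries had a high lymph node score and the skeletal muscle score of WT ran from 0.87 to 9.35. The log2 fold change of Acly was 1.87 ± 0.52 (adjusted p = 0.066). Fasn had 10370, 6804, 17420, 14170 and 15510 CPM in UCP1 KO and 7526, 5103, 4485, 6661 and 3331 in WT, with a log2 fold change of 1.25 ± 0.57 (adjusted p = 0.31). Me1, the malic enzyme that supplies NADPH, had 1474, 1045, 2608, 2273 and 3496 CPM in UCP1 KO and 1271, 1011, 731.4, 1082 and 520.4 in WT, with a log2 fold change of 1.24 ± 0.58 (adjusted p = 0.32). For Fasn and Me1 the lowest UCP1 KO library overlapped the upper end of WT. Thrsp, a small protein known as a marker of lipogenic activity, differed by 1.18 ± 0.47 (adjusted p = 0.22).

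The most abundant desaturase, transcription factor, acyl-CoA synthetase, acyltransferase and binding protein of iWAT were not called. Scd1 had 81570, 56210, 145000, 107500 and 100100 CPM in UCP1 KO and 100700, 101900, 94770, 74070 and 43670 in WT. The groups overlapped over most of their range, and the log2 fold change was 0.24 ± 0.55 (adjusted p = 0.92). Srebf1 had 503, 239.6, 514.2, 330.9 and 356.7 CPM in UCP1 KO and 332.2, 408, 430.5, 422.2 and 242.4 in WT, a difference of 0.08 on the log2 scale (adjusted p = 0.95). Acsl1, the main acyl-CoA synthetase of adipocytes, had 3584, 2069, 3431, 3027 and 4202 CPM in UCP1 KO and 2091, 2640, 2037, 2235 and 1504 in WT, a difference of 0.63 (adjusted p = 0.57). Dgat2, which adds the last acyl chain of triglyceride, had 774.7, 781.3, 1923, 1250 and 1136 CPM in UCP1 KO and 1401, 1391, 1188, 652.4 and 405.7 in WT, a difference of 0.22 (adjusted p = 0.93). Fabp4 had 10240, 6920, 11960, 10750 and 10640 CPM in UCP1 KO and 9484, 11520, 10300, 7834 and 5329 in WT, a difference of 0.18 (adjusted p = 0.91). UCP1 KO and WT overlapped for each of these 5 genes. The adipocyte marker score ranged from 9.67 to 10.57 in UCP1 KO and from 9.51 to 10.7 in WT, while the brown adipocyte score of 6 genes was 3.5 to 5.29 in UCP1 KO and 2.02 to 2.73 in WT, with 3 of 5 tested genes called higher. Of the other lists, 0 genes were called by edgeR in iWAT, with scores of UCP1 KO and WT at 6.47 to 8.02 and 6.95 to 7.68 for macrophages, 6.32 to 7.13 and 6.46 to 7.47 for endothelium, and -2.85 to -0.75 and -3.03 to -1.94 for keratin epithelium. The part of brown adipocyte markers in the higher members was not tested.

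The other members of iWAT were not called by edgeR either. DESeq2 called 5 members between UCP1 KO and WT (3.49% of all genes), Acly, Tkt, Scd3, Mlx and Acsl5, all higher. Of triglyceride assembly, Gpam, the mitochondrial glycerol-3-phosphate acyltransferase, had 127.8 to 258.2 CPM in UCP1 KO and 83.58 to 168.4 in WT, a difference of 0.58 ± 0.30. Agpat1, Agpat2 and Agpat3, which add the second acyl chain, differed by 0.35, 1.44 and 0.63 (adjusted p = 0.086, 0.24 and 0.21). Lpin1, Lpin2 and Dgat1 differed by 0.50, 0.58 and 0.51. Taldo1 and Pgd of the pentose phosphate pathway differed by 0.71 and 0.84, G6pdx by 0.57, and Acss2, which makes acetyl-CoA from acetate, by 0.66. Mlx, the partner of ChREBP, had 33.27 to 47.6 CPM in UCP1 KO and 28.23 to 34.85 in WT, a small difference with a small error, 0.39 ± 0.10 (adjusted p = 0.052). Fabp5 had 314.2, 252.4, 446.5, 417.6 and 455.4 CPM in UCP1 KO and 241.6, 235.4, 204.6, 227 and 169.6 in WT, without overlap, at 0.81 ± 0.36 (adjusted p = 0.30). Mlxipl (adjusted p = 0.26) was not called, Acsl3 differed by 1.31 (adjusted p = 0.089), and Scd2, Fads2 and Acsl4 by 0.75, 0.38 and 0.21. For Acsl6 the UCP1 KO libraries held 1 to 68 counts, those of WT 2 to 63. The 6 members with a negative value were Scd4, Fads1, Fads3, Lpin3, Mogat1 and Mogat2, at -0.36 to -0.03. Both monoacylglycerol acyltransferases, which form diacylglycerol by a route other than glycerol-3-phosphate, are among these 6.

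In dKO, which lacks FGF21 as well, 34 members had a lower estimate than in UCP1 KO and 5 a higher one. Between UCP1 KO and dKO, 1 member was again called, Acsl5 (0.466% of all genes were called), at 1.20 ± 0.20 (adjusted p = 0.0039), while 15 members were higher and 1 lower in UCP1 KO at an unadjusted p under 0.05 (14.2% of all genes pass in either direction and 9.8% are higher). The median of the members was 0.64 (0.42 to 0.81 without 1 library, lowest without dKO replicate 1), against -0.04 over all genes, and it was 1.38 for fatty acid synthesis, 0.83 for the acyl-CoA synthetases and 0.68 for carbon and NADPH supply. Acacb had 89.03, 183, 209.2, 482.8 and 334.7 CPM in dKO, each below every UCP1 KO library, a difference of 2.02 ± 0.47 (adjusted p = 0.030). The UCP1 KO libraries were above every dKO library for Acly, Acacb and Acsl5, beside 1.48% of all genes. The Acsl5 call was lost in 6 of the 20 fits without 1 library and in the fit of the 2 genotypes alone (adjusted p = 0.123). The brown adipocyte score was 3.5 to 5.29 in UCP1 KO and 1.65 to 3.2 in dKO, with 1 of 5 tested genes called higher and a median difference of 3.29, and the skeletal muscle score was 1.29 to 9.81 against 1.42 to 4.53, with 0 of 10 genes called by edgeR and 3 at an unadjusted p under 0.05. The part of either was not tested.

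Between dKO and WT in iWAT, 0 members were called by edgeR and by DESeq2 (0.0173% of all genes by edgeR), and 1 member, Mogat2, had an unadjusted p under 0.05 (5.91% of all genes). The median was 0.04, against 0.02 over all genes, and the medians by role lay between -0.13 and 0.12. Between FGF21 KO and WT, 0 members were called by either tool (0.00575% of all genes by edgeR), with 5 at an unadjusted p under 0.05 (17.4% of all genes), 2 higher and 3 lower. Acacb was among the lower ones, at -1.28 ± 0.46 (adjusted p = 0.25), and the median of the members was -0.36. That median rested on FGF21 KO replicate 2, without which it was -0.91, and on FGF21 KO replicate 3, without which it was -0.21. In the libraries of low lymph node score, where replicate 2 is the only FGF21 KO library, it was 0.52. The dKO and FGF21 KO libraries also gave 0 calls by either tool (0.0115% of all genes by edgeR), with 4 members higher and 1 lower in dKO at an unadjusted p under 0.05 (8.62% of all genes). Without FGF21 KO replicate 2 the median was 0.99 in place of 0.40, and without FGF21 KO replicate 3 it was 0.23. Over all fits without 1 library, 0 to 28 members were higher at that p. The share of all genes passing in these fits was not computed, so the counts are not a result about the members. In these comparisons with FGF21 KO, 4 of the 5 FGF21 KO libraries had a high lymph node score, with adipocyte scores of 8.46 to 9.54, while the library of low lymph node score had 10.65.

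The interaction term, which tests whether the effect of UCP1 loss differs with and without FGF21, was called for 0 members in edgeR (0% of all genes) and for 1, Acsl5, in DESeq2 (0.363% of all genes). At an unadjusted p under 0.05, 5 members had a positive interaction and 0 a negative one (9.98% of all genes), namely Acly, Scd3, Mlx, Acsl5 and Lpin2. For Acsl5 it was 1.24 ± 0.27 on the log2 scale (adjusted p = 0.14), with -0.05 between dKO and FGF21 KO. For Acly it was 1.68 ± 0.72 (adjusted p = 0.44), and for Fasn 0.53 ± 0.80 (adjusted p = 0.89). The median interaction of the members was 0.39, and -0.11 without FGF21 KO replicate 2.

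The lymph node score changed how many members passed. Among the 11 iWAT libraries with a low score (3 WT, 4 UCP1 KO, 3 dKO and 1 FGF21 KO, the lone library being assumed to vary like the others), 8 members were called between UCP1 KO and WT, all higher, beside 3.73% of all genes. They were Tkt (1.71, adjusted p = 0.0024), Taldo1, the transaldolase of the same pathway (0.72, 0.0052), Acaca (1.58, 0.0054), Acacb (1.66, 0.0064), Thrsp (1.09, 0.0058), Mlxipl, which encodes ChREBP (1.05, 0.0086), Acsl5 (1.29, 0.0085) and Dgat1, which like Dgat2 completes triglyceride (0.54, 0.0064). Against dKO, only Tkt was called in these libraries (0.944% of all genes). With the score as a covariate in all 20 libraries, 4 members were called against WT (4.51% of all genes), with Tkt, Acsl5 and Lpin2 higher and Lpin3 lower. Against dKO, that fit called 6 members (4.45% of all genes), with Tkt, Acaca, Acacb, Acsl5 and Agpat3 higher and Lpin3 lower. Tkt and Acsl5 were thus called against WT under both treatments of the score.

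**Figure D3:**
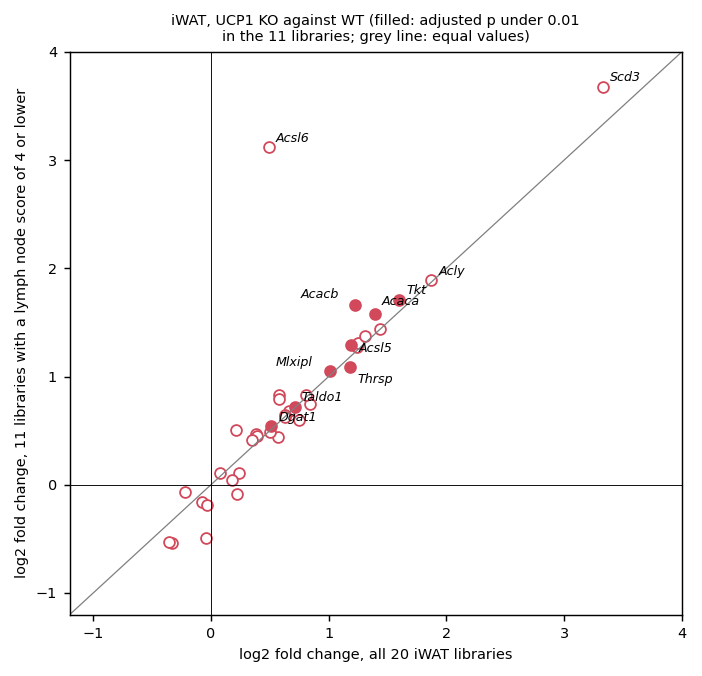
Log2 fold change of UCP1 KO against WT in iWAT for each member, from all 20 libraries (horizontal axis) and from the 11 libraries with a lymph node score at or under 4 (vertical axis), with filled points for the 8 members called in the 11 libraries and a grey line for equal values. Most points lie near the line, as for Acsl5 (1.19 and 1.29) and Tkt (1.60 and 1.71), and the barely counted Acsl6 lies far from it.

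In BAT, between UCP1 KO and WT, 9 of the 38 members other than Acsl6 were called, 8 higher and 1 lower, beside 25.2% of all 15729 genes tested (13.8% higher and 11.4% lower). At an unadjusted p under 0.05, 14 of the 38 were higher and 5 lower (48.9% of all genes). The share called was 23.7%, close to that background, and the median log2 fold change was -0.01, against 0.01 over all genes. Acsl6 also had an adjusted p under 0.01, but it passed the filter on low counts only through the genotypes where it is high, so it is left out of the counts of BAT here and given as a description. Of the 7 desaturases, Scd2, Scd3, Fads1 and Fads3 rose (median of the 7, 0.95), while Scd1, the most abundant, was at -0.24. Of the other 4 acyl-CoA synthetases, Acsl3 and Acsl4 rose (median 0.78), while Acsl1, the most abundant synthetase, was at -0.26. Lpin2 and the binding protein Fabp5 rose, and Dgat2 fell. Of the 11 genes of carbon and NADPH supply and of fatty acid synthesis, 0 were called in edgeR, with medians of -0.05 and -0.52, and G6pdx and Acacb were called in DESeq2 (30.3% of all genes). The UCP1 KO libraries were above all WT libraries for Scd3, Acsl4 and Lpin2, beside the barely counted Acsl6 (11.8% of all genes) and below them for Dgat2 (11.7% of all genes).

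**Figure D4:**
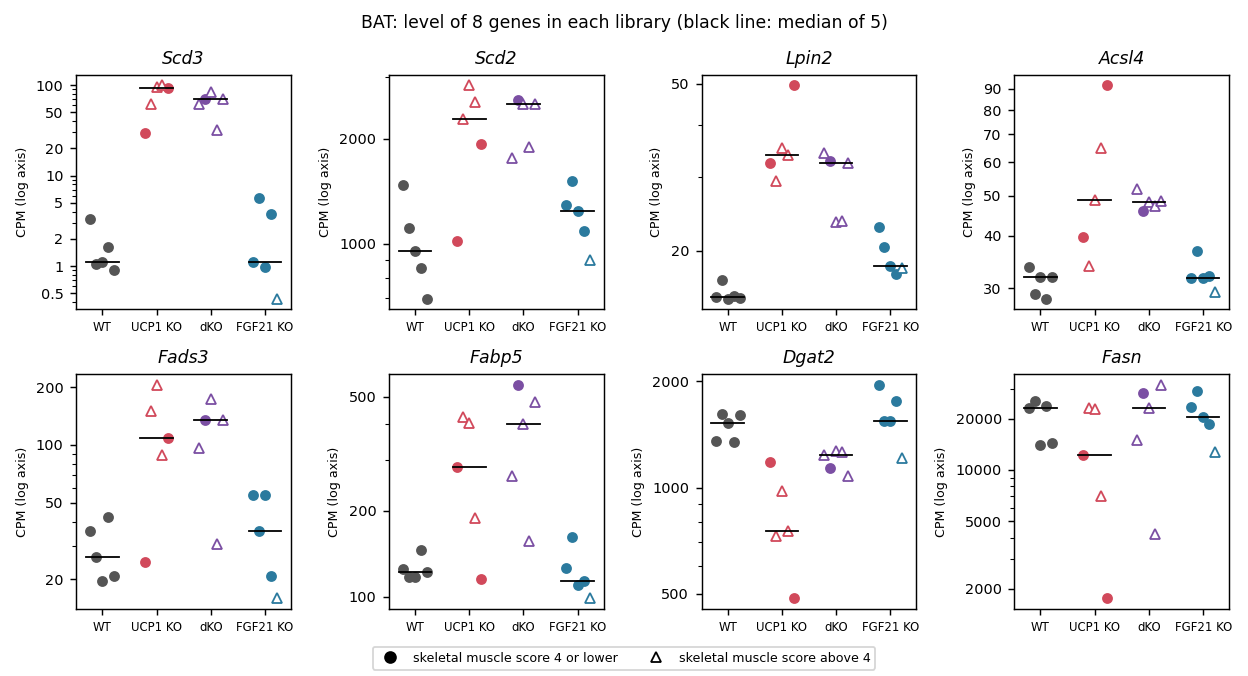
CPM (log axis) of 8 members in the 20 BAT libraries by genotype, with 1 marker per library, a black line at the median of 5 and open triangles for libraries with a skeletal muscle score above 4. The UCP1 KO and dKO libraries of Scd3 (29.66 to 99.63 CPM) and Lpin2 (23.48 to 49.67) lie above all WT and FGF21 KO libraries, and Fasn is spread from 1762 to 23140 CPM in UCP1 KO.

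Scd3, a stearoyl-CoA desaturase that WT fat barely expressed, lies on chromosome 19 from 44203269 to 44244016, beside Scd1, Scd2 and Scd4. It had 29.66, 61.74, 94.91, 99.63 and 92.16 CPM in UCP1 KO and 3.346, 1.053, 1.119, 1.626 and 0.8977 in WT. The groups were far apart, and Scd3 rose 46.7-fold (5.54 ± 0.58, adjusted p = 1.9e-06). Its level stayed far below that of Scd1, which is similar in sequence and had 68830, 81400, 85700, 44020 and 21020 CPM in UCP1 KO and 73030, 77940, 62160, 76310 and 64810 in WT. Scd1 overlapped between the groups, with a difference of -0.24 (adjusted p = 0.52). How reads shared by similar desaturases were assigned was not tested. Scd2, the desaturase best known from brain, had 1019, 2288, 2851, 2548 and 1932 CPM in UCP1 KO and 1471, 1109, 953.3, 854.7 and 696.5 in WT. It rose by 1.06 ± 0.23 on the log2 scale (adjusted p = 0.0016), with 1 UCP1 KO library inside the WT range. In iWAT, Scd3 had 26.99, 28.96 and 52.02 CPM in 3 UCP1 KO libraries, 2.86 and 3.744 in the other 2, and 0.5571 to 4.466 in WT, a difference of 3.33 ± 0.96 (adjusted p = 0.073).

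Fads3 had 24.51, 149.8, 205, 89.1 and 108.1 CPM in UCP1 KO and 35.72, 26.02, 19.55, 42.09 and 20.96 in WT in BAT. It rose by 2.00 ± 0.49 (adjusted p = 0.0036), with 4 UCP1 KO libraries above WT and 1 within it. Fads1 had 22.77, 31.75, 36.3, 33.02 and 51.28 CPM in UCP1 KO and 23.55, 19.14, 20.87, 26.31 and 18.5 in WT, with 4 UCP1 KO libraries above WT, and rose by 0.69 ± 0.18 (adjusted p = 0.0053). UCP1 KO replicate 1 was the library within the WT range for Scd2, Fads1 and Fads3.

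Lpin2 (chromosome 17, 71182560 to 71249817) had 32.48, 29.35, 35.22, 33.84 and 49.67 CPM in UCP1 KO and 15.52, 17, 15.38, 15.61 and 15.4 in WT. All UCP1 KO libraries were above all WT libraries, which lay close together, and Lpin2 rose by 1.19 ± 0.13 (adjusted p = 3.1e-06). Dgat2 (chromosome 7, 99153658 to 99182719) had 1183, 727.4, 977.8, 753.7 and 485.8 CPM in UCP1 KO and 1357, 1612, 1523, 1344 and 1601 in WT. All UCP1 KO libraries were below all WT libraries, and Dgat2 fell by 0.85 on the log2 scale (SE 0.17, adjusted p = 0.00079). Agpat2, the acyltransferase that makes phosphatidate, had 2111, 1896, 2473, 1622 and 1222 CPM in UCP1 KO and 1449, 1554, 1322, 1101 and 1131 in WT, and was not called in UCP1 KO, at 0.51 ± 0.19 (adjusted p = 0.037).

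The promoters of Scd3 and Lpin2 are shown for the members with the smallest adjusted p in BAT, on the same build and in the same layout. They lie at chr19:44203038-44203287 on the plus strand for Scd3 and chr17:71183282-71183531 on the plus strand for the first of 3 Lpin2 starts, and capitals mark the same motifs and the E-box (CACGTG).
Scd3: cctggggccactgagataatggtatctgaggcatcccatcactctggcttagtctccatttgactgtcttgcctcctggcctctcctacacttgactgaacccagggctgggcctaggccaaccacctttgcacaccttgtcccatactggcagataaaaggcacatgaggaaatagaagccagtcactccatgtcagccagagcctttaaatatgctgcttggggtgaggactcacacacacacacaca
Lpin2: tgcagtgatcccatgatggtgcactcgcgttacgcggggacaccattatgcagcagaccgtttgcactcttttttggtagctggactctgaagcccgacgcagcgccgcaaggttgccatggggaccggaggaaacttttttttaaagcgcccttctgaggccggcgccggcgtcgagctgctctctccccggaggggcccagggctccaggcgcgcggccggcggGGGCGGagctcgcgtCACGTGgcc
The Lpin2 window also lies inside the GENCODE span of the gene. The Scd3 window held no match to any motif searched, and the Lpin2 window held a GC box and an E-box.

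Among the acyl-CoA synthetases of BAT, Acsl3 had 97.23, 75.92, 104.8, 147.6 and 127.3 CPM in UCP1 KO and 74.08, 82.03, 66.54, 49.41 and 54.84 in WT, overlapping in 1 library, and rose by 0.76 ± 0.16 (adjusted p = 0.00092). Acsl4, which prefers arachidonate, had 39.67, 33.9, 48.71, 64.82 and 91.85 CPM in UCP1 KO and 33.74, 29.04, 31.89, 28.33 and 31.91 in WT, without overlap, and rose by 0.85 ± 0.18 (adjusted p = 0.0012). Acsl6 had 6, 40, 9, 14 and 15 counts in UCP1 KO and 0, 0, 0, 1 and 1 in WT. Its summed counts of 84 and 2 gave a ratio of 35.8 at equal depth (95% interval 9.62 to 301, counting error only). Acsl6 is a gene of muscle here, at 18.47 to 21.45 CPM in WT muscle, and the UCP1 KO library with 40 counts had the highest skeletal muscle score, 9.28. In the other UCP1 KO libraries with scores of 5.75, 4.52, 2.07 and 1.91, Acsl6 had 9, 14, 6 and 15 counts. The part of muscle in the Acsl6 counts was not tested. Acsl1 had 4125, 2059, 2125, 2214 and 1911 CPM in UCP1 KO and 2456, 3062, 3293, 2727 and 3348 in WT, with 1 library above and 4 below the WT range, and was not called at -0.26 ± 0.19 (adjusted p = 0.28).

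The synthesis genes were spread widely among UCP1 KO libraries in BAT. Fasn had 12190, 23140, 22960, 7015 and 1762 CPM in UCP1 KO and 23080, 25600, 14100, 23690 and 14340 in WT, a difference of -0.59 ± 0.52 (adjusted p = 0.39). Acly had 1586, 5574, 6735, 2224 and 461.4 CPM in UCP1 KO and 5162, 4257, 1951, 3749 and 2016 in WT, a difference of -0.05 (adjusted p = 0.96). For Fasn, 3 UCP1 KO libraries lay below WT and 2 within it. For Acly, 2 lay above WT, 2 below and 1 within it. Mlxipl had 177.4, 441.7, 562.9, 267.4 and 130 CPM in UCP1 KO and 634.2, 563.4, 423, 585.5 and 474.5 in WT, a difference of -0.76 (adjusted p = 0.061). Fabp5, the second adipocyte fatty acid carrier, had 284.7, 425.1, 405.8, 187.7 and 115.8 CPM in UCP1 KO and 125.4, 117.6, 116.9, 145.4 and 122.5 in WT, and rose by 1.18 ± 0.32 (adjusted p = 0.0065), with 1 UCP1 KO library below WT. Fabp4 had 9074, 7220, 7040, 4907 and 3206 CPM in UCP1 KO and 7119, 7031, 7229, 7548 and 7703 in WT, with overlap, and was not called at -0.22 ± 0.18 (adjusted p = 0.35).

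The remaining members of BAT were not called by edgeR between UCP1 KO and WT, and of these DESeq2 called G6pdx, Acacb and Fads2. Me1 had 1484, 2369, 2573, 1268 and 603.1 CPM in UCP1 KO and 948.5, 953.1, 576.8, 1204 and 713.2 in WT, with 4 UCP1 KO libraries above WT and 1 within it, at 0.92 ± 0.37 (adjusted p = 0.055). G6pdx and Pgd, the NADPH-forming enzymes of the pentose phosphate pathway, differed by 0.50 and 0.55 (adjusted p = 0.022 and 0.17). Fads2 differed by 0.72 (adjusted p = 0.015), the barely counted Scd4 by 0.95 (0.031) and Acsl5 by 0.80 (0.033). Acaca, Acacb and Thrsp of fatty acid synthesis differed by -0.46, -0.62 and -0.30 (adjusted p = 0.42, 0.012 and 0.51). Tkt, Taldo1, Acss2, Scd1, Srebf1 and Mlx lay between -0.39 and 0.09. Of triglyceride assembly, Gpam, Agpat1, Agpat3, Lpin1, Lpin3, Dgat1 and Mogat2 lay between -0.22 and 0.16, and Mogat1 was at -0.50 ± 0.21 (adjusted p = 0.066).

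Marker scores of other cells moved with the UCP1 KO libraries of BAT. The macrophage score was 4.11 to 5.55 in UCP1 KO and 3.59 to 3.85 in WT, with 5 of its 6 genes called higher, the skeletal muscle score had 5 of 10 genes called higher, and the adipocyte score was 6.51 to 8.22 against 7.73 to 8.59, with 3 of 7 genes called lower. Among the BAT libraries with a skeletal muscle score at or under 4, 5 of the 38 members were called between UCP1 KO and WT (15.2% of all genes), with Scd3 (5.26), Acsl3 (0.80), Acsl4 (1.11) and Lpin2 (1.41) higher and Mlxipl (-1.78) lower. This fit, added after the scores were seen, holds 2 of the 5 UCP1 KO libraries and 1 dKO library, which is assumed to vary like the others. Scd2, Fads1, Fads3, Dgat2 and Fabp5 lost their calls in it, and the part of the macrophages was not tested. With the muscle score as a covariate in all 20 libraries, Fads3 and Fabp5 lost their calls. Leaving out 1 library ended the call of Fabp5 in 7, of Fads1 in 5 and of Fads3 in 4 of the 20 fits. With only the 2 genotypes fitted, Scd2, Fads1, Acsl3 (adjusted p = 0.010), Acsl4 (0.017) and Fabp5 lost their calls.

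Between dKO and WT in BAT, 11 of the 38 members were called, all higher, beside 21.1% of all genes (11.1% higher), and at an unadjusted p under 0.05, 15 were higher and 1 lower (46.2% of all genes). They include Scd2 (1.15, beside 1.06 in UCP1 KO), Fads3 (1.99 beside 2.00), Acsl3 (0.81 beside 0.76), Acsl4 (0.64 beside 0.85) and Fabp5 (1.56 beside 1.18). Scd3 had 61.72, 70.76, 83.03, 32.27 and 69.67 CPM in dKO, all above WT, and rose by 5.29 ± 0.58 (adjusted p = 3.5e-06). Lpin2 had 34.29, 32.78, 23.48, 23.57 and 32.31 CPM in dKO and rose by 0.89 (adjusted p = 6.9e-05). Acsl6 had 23, 4, 30, 60 and 11 counts in dKO, a ratio to WT of 53.9 (95% interval 14.6 to 450), and the skeletal muscle scores of these libraries were 8.25, 2.38, 8.39, 8.34 and 4.61. The libraries with the 3 highest scores had the 3 highest counts, and the part of muscle in these counts was not tested. Both comparisons use the same WT libraries. The other 4 were Me1 (1.43 ± 0.37, adjusted p = 0.0066), G6pdx, the first enzyme of the pentose phosphate pathway (0.62, 0.0074), Acsl5 (1.09, 0.0072) and Agpat2 (0.78, 0.0038). Dgat2 had 1241, 1136, 1269, 1263 and 1078 CPM in dKO, below all WT libraries, but was not called at -0.31 (adjusted p = 0.16).

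Markers of other cells moved with dKO as well. Against WT, 10 of 10 skeletal muscle genes and 5 of 6 tested hepatocyte genes were called higher, and the hepatocyte score was 1.61 to 1.85 in dKO and -0.07 to 0.42 in WT. With the muscle score as a covariate, Me1, G6pdx, Fads3, Acsl5 and Agpat2 lost their calls against WT. In the libraries with a muscle score at or under 4, which hold 1 dKO library, Scd2, Fads3, Acsl4, Acsl5 and Agpat2 lost theirs, and Acsl6 had an adjusted p of 0.11. Scd3, Acsl3, Lpin2 and Fabp5 were called in both of these fits. Leaving out 1 library ended the call of Acsl4 in 17 of the 20 fits (adjusted p up to 0.024), of G6pdx in 11 (up to 0.026), of Acsl5 in 8, of Me1 in 6 and of Fads3 and Agpat2 in 4 each. The part of the hepatocyte genes was not tested.

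The comparison of dKO with FGF21 KO, which shares no library with that of UCP1 KO and WT, called 5 of the 38 members, all higher in dKO, beside 13.5% of all genes (6.74% higher), and at an unadjusted p under 0.05, 14 were higher and 2 lower (40% of all genes). They were Me1 (1.42, adjusted p = 0.0093), Scd2 (0.90, 0.0083), Scd3 (4.75, 1.0e-05), Lpin2 (0.59, 0.0033) and Fabp5 (1.60, 0.0014). Scd3 had 1.121, 5.626, 0.9681, 3.736 and 0.438 CPM in FGF21 KO, all below the dKO libraries. Lpin2 had 22.85, 20.37, 18.43, 17.64 and 18.24 CPM in FGF21 KO, each above every WT library and below every dKO library. In FGF21 KO, Lpin1 and Lpin2 lay above WT without overlap (1.95% of all genes). Markers moved with this comparison too, with 10 of 10 skeletal muscle and 4 of 6 tested hepatocyte genes at an unadjusted p under 0.05, 0 of them called. Of the adipocyte markers 2 of 7 were called lower, and 1 of 6 macrophage and 1 of 8 lymph node genes higher. The part of these cells was not tested. Me1 lost its call in 15 of the 20 fits without 1 library, Scd2 in 9 and Lpin2 in 2. With the muscle score as a covariate, Me1 and Scd2 lost their calls, and in the libraries of low muscle score Scd2 and Lpin2 did. Acsl6 passed in neither of these 2 fits, but between UCP1 KO and WT it passed in all 7 alternatives. For each comparison Acsl6 is given as a description only.

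Between UCP1 KO and dKO in BAT, 0 members were called by edgeR (0.0636% of all genes), with 1 higher and 1 lower at an unadjusted p under 0.05 (12.9% of all genes). The median of the 38 members other than Acsl6 was -0.21. In the libraries of low skeletal muscle score, which hold 1 dKO library, it was -0.71. The FGF21 KO and WT libraries also gave 0 calls (0% of all genes), with 3 members higher and 0 lower at an unadjusted p under 0.05 (8.55% of all genes). The interaction was called for 0 members (0% of all genes) and Lpin2 alone had an unadjusted p under 0.05 (5.37% of all genes), at 0.61 ± 0.19 (adjusted p = 0.90). The median interaction of the 38 members was -0.13, and -0.51 in the libraries of low skeletal muscle score. DESeq2 called 0 members in each of these 3 comparisons.

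The effect of UCP1 loss was compared between the fats with the 40 libraries of both in 1 model. The difference, UCP1 KO minus WT in iWAT less the same in BAT, was called for Tkt and Acacb (2 of 39), beside 7.48% of all genes. The median of the members was 0.41, against -0.03 over all genes, and 11 members were higher and 6 lower at an unadjusted p under 0.05 (29.3% of all genes). For Tkt the difference was 1.96 ± 0.48 (adjusted p = 0.0051). In BAT, Tkt had 2184, 2831, 3453, 1747 and 872.4 CPM in UCP1 KO and 3187, 3410, 2064, 3504 and 2379 in WT, so that UCP1 KO overlapped WT there. For Acacb the difference was 1.81 ± 0.49 (adjusted p = 0.0099), and in BAT it had 2381, 1567, 1575, 1319 and 917.2 CPM in UCP1 KO and 2157, 2531, 2435, 2561 and 2244 in WT, with 4 of 5 UCP1 KO libraries below WT. The Tkt call was lost in 6 of 20 fits that each left out 1 WT or UCP1 KO library, and that of Acacb in 17. Without the iWAT libraries of high lymph node score, 7 members were called (13.4% of all genes), with Tkt (2.12), Acacb (2.30), Mlxipl (1.84), Gpam, which starts triglyceride assembly (1.06), Agpat1 (0.61) and Agpat3 (0.88) higher in iWAT and Fads3 (-2.52) lower.

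**Figure D5:**
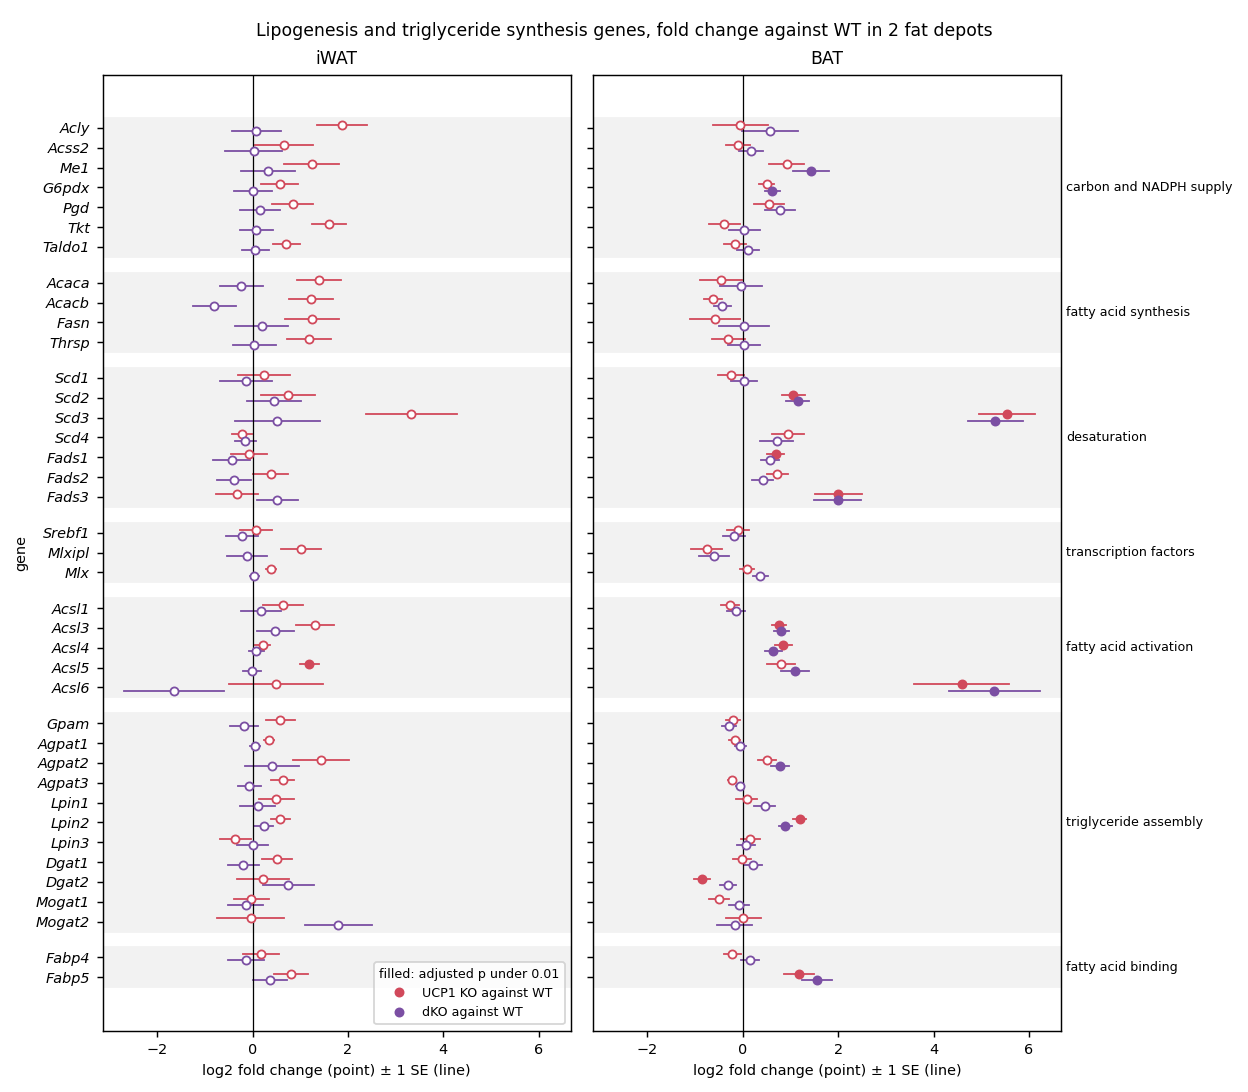
Log2 fold changes against WT, in UCP1 KO and in dKO, for each member in iWAT (left) and BAT (right), by role, with lines of 1 SE and filled points for called members. For UCP1 KO, most genes of carbon supply and synthesis lie above 0 in iWAT (medians 0.84 and 1.23) and around or below 0 in BAT (-0.05 and -0.52), and Scd3 is the most raised member in BAT at 5.54.

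In liver, 0 members were called by edgeR in each of 4 comparisons. Between UCP1 KO and WT, where 0.0694% of all genes were called, 1 member was higher and 5 lower at an unadjusted p under 0.05 (10.2% of all genes), and DESeq2 called 1 member, Acsl1 (0.778% of all genes). Scd1 had 3647, 6369, 4618, 4191 and 6466 CPM in UCP1 KO and 10890, 8288, 7076, 8165 and 9123 in WT, and Thrsp had 156.5, 161.6, 222.3, 212.2 and 183.8 against 290.2, 270.6, 311, 378.4 and 309.8. The UCP1 KO libraries of both genes were below all WT libraries, beside 0.68% of all genes. Acsl1 had 975, 1035, 1015, 826.1 and 951.2 CPM in UCP1 KO and 1315, 1033, 1388, 1410 and 1404 in WT, a difference of -0.45 (adjusted p = 0.052 in edgeR and 0.0032 in DESeq2). The other lower members were Acaca and Acacb, at -0.53 and -0.47 (adjusted p = 0.28 and 0.43), and Lpin2 was higher at 0.32 (0.45). Liver Fasn overlapped, with 265.7 to 516 CPM in UCP1 KO and 288.3 to 642.7 in WT. The skeletal muscle score in liver was 0.38 to 1.22 in UCP1 KO and 1.1 to 3.2 in WT, and its part was not tested.

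The other liver comparisons gave 0 calls by edgeR and by DESeq2. Against dKO, 0 members were higher and 6 lower in UCP1 KO at an unadjusted p under 0.05 (8.25% of all genes, and 0.00694% called). Mogat1 had 0.161 to 0.299 CPM in UCP1 KO and 0.505 to 2.449 in dKO, without overlap (0.333% of all genes). Between FGF21 KO and WT, 3 were higher and 1 lower (7.54% of all genes, and 0.229% called), and Fabp4 was above WT in all FGF21 KO libraries, at 10.98 to 13.33 against 9.1 to 10.84 CPM (0.84% of all genes). The skeletal muscle score was 0.34 to 1.16 in FGF21 KO and 1.1 to 3.2 in WT liver, with 6 of 10 genes called lower. The 5 tested adipocyte markers had a median of 0.61 with 0 called, and the part of either was not tested. Between dKO and FGF21 KO, 2 were higher and 3 lower (6.75% of all genes, and 0.00694% called).

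In muscle, 0 members were called in each of 4 comparisons by edgeR and by DESeq2. At an unadjusted p under 0.05, 0 members passed between UCP1 KO and WT (9.81% of all genes, and 0.0265% called by edgeR), 3 between UCP1 KO and dKO (11.7%, and 0% called), 4 between FGF21 KO and WT (12.9%, and 0.00662% called) and 1 between dKO and FGF21 KO (7.96%, and 0.0595% called). Scd2 was above WT in all FGF21 KO libraries, at 158.1 to 225.6 against 96.16 to 152.1 CPM (1.65% of all genes). Hepatocyte markers moved with that comparison, with a score of 0.49 to 3.9 in FGF21 KO and -0.63 to 0.51 in WT muscle and 6 of 6 tested genes at an unadjusted p under 0.05, 0 of them called by edgeR, and their part was not tested. The median of the members was -0.03 between UCP1 KO and WT. In WT muscle, replicate 4 had the highest adipocyte score, 4.74, with 242.2 CPM of Fasn and 2129 of Scd1. The other WT libraries had 31.68 to 61.77 and 492 to 1074 CPM, and the part of adipocytes in these levels was not tested.

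Genes that flank the pathway were also counted. Of 27 tested genes of neighbouring steps (fatty acid elongation, glycerol-3-phosphate supply, lipid droplet coating and the like), 4 rose between UCP1 KO and WT in iWAT and 0 fell, with a median of 0.34 (0.593% of all genes were called higher there). Gk, the glycerol kinase, rose by 3.53 (adjusted p = 0.00064), Gpd2, the mitochondrial glycerol-3-phosphate dehydrogenase, by 2.59 (0.00081) and Elovl3, a fatty acid elongase of brown fat, by 8.39 on the log2 scale (0.00094). In BAT, where 13.8% of all genes were called higher and 11.4% lower, 3 of the 27 rose and 0 fell. They were Elovl3 (3.31, adjusted p = 1.0e-05), Plin2, a coat protein of lipid droplets (1.40, 9.0e-05) and Agpat9, a glycerol-3-phosphate acyltransferase (1.47, 0.00013). Of 20 regulators of lipogenesis, 1 rose in iWAT, Ppara (3.38, adjusted p = 0.0038). In BAT, 2 of the 20 rose and 7 fell, led by Cebpa, the adipocyte transcription factor (-1.27, adjusted p = 2.0e-06), Mbtps1, a protease that activates SREBPs (-0.30, 0.00015) and Rxra, a nuclear receptor partner (-0.66, 0.00023). Liver and muscle gave 0 calls in the neighbouring steps between UCP1 KO and WT by edgeR.

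Promoters of 31 of the 39 members, with 44 starts, were in the RefSeq table of GRCm38.p6, and each was searched on both strands over 250 bases. A GC box (GGGCGG, bound by Sp1) was matched in 20 members (64.5%, against 35.4% of 27025 genes), and a CCAAT box in 18 (58.1% against 37.5%). The sterol regulatory element TCACNCCAC was matched in Acsl1 and Mlxipl (6.45% against 1.22%), and the E-box CACGTG in Lpin2, Mlx and Mlxipl (9.68% against 6.86%). The motif searches describe letters in these windows only.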

How the data were processed

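RNA-seq data were analyzed from 80 libraries of iWAT, BAT, liver and muscle. Per the labels and the study's methods, poly(A) RNA was sequenced strand-specifically, reads were aligned with STAR to mm10, and the authors deposited HTSeq read counts per gene symbol, without normalization. Whether the counting used strand is not given in the sources used here, and 14 members have an exon that overlaps another gene on the other strand. No pair of the 760 pairs of libraries of a tissue was identical. The labels give no replicate numbers, those used here only name libraries in accession order, and no labels link libraries of 1 mouse, so p-values measure the spread between libraries.

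A gene was kept in a tissue where its highest count was over 15, its summed count over 75 and at most 10 libraries had 0. One unnamed row was dropped (at most 3.42e-05% of counts). Counts were scaled with TMM factors and tested by the quasi-likelihood method of edgeR (version 4.0.16, R 4.3.3), with 1 mean per genotype over 20 libraries, and Benjamini-Hochberg adjustment over all genes tested. The effects in both fats were compared in 1 model of 40 libraries. The study's methods name DESeq2 (version 1.42.0 here), which was run as an alternative. The other alternatives were RLE factors, no low-count filter, an adjusted p under 0.05, fits of the 2 genotypes compared, covariates and subsets by marker score, and leaving out each library. A score averages log2(CPM + 0.1) over the markers of adipocytes, brown adipocytes, hepatocytes, skeletal muscle, lymph node, macrophages, endothelium and keratin epithelium. The code was tested on simulated data.

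The members and lists were chosen with earlier results of these data known. Of the members, values in every library are given for those called in UCP1 KO against WT in iWAT or BAT (up to 8 by adjusted p), those called between the fats and the most abundant of each role. From the lists of neighbouring genes and regulators, up to 3 called genes are named. Exon lengths are those of GENCODE M21.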

Additional observations from a re-analysis of the deposited data

Results flagged for a closer look

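In 108 groups of 5 libraries of the members shown, 10 held a library far from the other 4, and chance picks about 1 in 20 groups. Of these, 6 were FGF21 KO replicate 2 in iWAT, the FGF21 KO library with a low lymph node score. It was far above its group for Me1 (1903 CPM), Fasn (11320), Scd1 (141300), Dgat2 (2662), Tkt (565.8) and Acacb (428.5). The other 4 FGF21 KO libraries had at most 574.3 CPM of Me1 and 3345 of Fasn, and all of them had a high lymph node score, whose part was not tested. In BAT, the library far from its group was WT replicate 2 for Lpin2 (17 CPM), UCP1 KO replicate 5 for Lpin2 (49.67), UCP1 KO replicate 2 for Acsl6 (0.9999, the library with a skeletal muscle score of 9.28) and UCP1 KO replicate 1 for Acsl1 (4125).

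The effect of UCP1 loss differed between iWAT and BAT by the test of the difference itself for Tkt (1.96 on the log2 scale) and Acacb (1.81), both higher in iWAT. These are 2 of 39 members, beside 7.48% of all genes. The Acacb call was lost in 17 of 20 fits without 1 library, with RLE factors and without the low-count filter (adjusted p up to 0.021), and the Tkt call in 6 of the 20 fits (up to 0.013).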

How the results depend on the processing

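No paired analysis was possible because the labels carry no replicate numbers (those used here follow accession order and only name libraries) and link no libraries of the same mouse. The counts here are over all 39 members, Acsl6 in BAT included, and shares in parentheses are those of all genes called in the same fit. Leaving out each library in turn gave 0 to 2 called members between UCP1 KO and WT and 0 to 2 between UCP1 KO and dKO in iWAT, where the median of the members against WT stayed between 0.49 and 0.76. In BAT it gave 7 to 13 between UCP1 KO and WT, 6 to 13 between dKO and WT and 3 to 10 between dKO and FGF21 KO (10, 12 and 6 with all libraries), and for the difference between the fats 0 to 5. For fits without 1 library the share of all genes called was not computed. With all libraries it was 25.2%, 21.1% and 13.5% in these 3 BAT comparisons and 7.48% between the fats. The other comparisons had 0 in all of these fits. DESeq2 called 5 members against WT in iWAT (Acly, Tkt, Scd3, Mlx and Acsl5, 3.49%), 5 against dKO (3.13%) and 1 in the interaction (0.363%), 11 between dKO and FGF21 KO in BAT (19.5%), 1 in liver (Acsl1, 0.778%) and 5 between the fats (10%). At an adjusted p under 0.05, 2 members were called against WT (2.59%) and 3 against dKO (2.32%) in iWAT, 17 between UCP1 KO and WT (40.7%) and 13 between dKO and FGF21 KO (28%) in BAT and 8 between the fats (15.7%). With only the 2 genotypes compared, 0 were called in either iWAT comparison (0.00575% against WT and 0% against dKO) and 5 between UCP1 KO and WT in BAT (16.5%), which uses fewer libraries. The lymph node covariate gave 4 against WT (4.51%) and 6 against dKO (4.45%), and the libraries of low score 8 against WT (3.73%). With low lymph node and low muscle scores, chosen after seeing the data, 10 were called against WT (4.01%), 4 against dKO (1.85%) and 1 in the interaction (0.414%). In BAT, the muscle covariate gave 7 between dKO and WT (11.8%), and the libraries with a low muscle score, also chosen later, 6 between UCP1 KO and WT (15.2%) and 8 between dKO and WT (6.64%). Between the fats, RLE factors gave 1 (7.02%) and no filter 1 (3.82%), and 7 were called without the iWAT libraries of high lymph node score (13.4%). Scd3 and Lpin2 kept their calls in BAT between UCP1 KO and WT in all 7 alternatives. Acsl6 did so as well, but it passed the low-count filter only through the genotypes where it is high. The cause of these changes was not tested. With 5 libraries per group and 9 of 20 in iWAT of high lymph node score, a call that is missing does not show that a member did not differ.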
